A study of Mus musculus with 6 samples.

Results

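The genes of respiratory complexes II to V were compared between control and *Yy1* knockdown (KD) mouse morulae. The members were chosen by symbol (*Sdh* subunits and *Sdhaf* assembly factors for complex II, *Uqcr* and *Cyc1* for complex III, *Cycs* for cytochrome c, *Cox* followed by a number for complex IV, and *Atp5* for complex V), and symbols marked as pseudogenes were left out. This rule gave 65 of the 55364 genes listed, under 64 symbols, since *Atp5o* is listed under 2 identifiers. Complex II had 8 members, complex III 9, cytochrome c 1, complex IV 29 and complex V 18. Of these, 63 were annotated as protein coding and 2 (*Cox6c2* and *Cox20b*) as processed pseudogenes. Subunits encoded by mitochondrial DNA were not analysed here, since 0 mitochondrially encoded genes were listed.

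Complexes II, III and IV pass electrons along the inner mitochondrial membrane, from succinate through ubiquinone and cytochrome c to oxygen, and complexes III and IV pump protons as they do so. Complex V, the ATP synthase, uses the proton gradient to make ATP. Most subunits are encoded in the nucleus, and cleavage-stage embryos, which take up little glucose, rely on mitochondrial oxidation of pyruvate and lactate before glucose use rises around the morula and blastocyst stages.

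Both groups were embryos of BDF1 mothers and BDF1 fathers, fertilized in vitro, injected as zygotes with a control siRNA or an siRNA against *Yy1*, a zinc finger transcription factor, and cultured in KSOM medium. Each group held 3 libraries of total RNA, each made from 10 pooled morulae collected 64 h after insemination. The labels do not say that the pools came from separate fertilizations, so p-values measure the spread between these libraries, which may be in part technical. RNA was extracted from whole embryos, so fewer cells of a type and less RNA per cell cannot be told apart.

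Values are TPM, a unit of transcript abundance that divides read pairs by exon length and is scaled to the same total in each library. The recovered depth was 11794118 to 24418353 read pairs per library, and 49517 to 120464 of these pairs fell on the members. *Yy1* itself had 96.0, 100.2 and 89.8 TPM in control KD against 8.73, 8.90 and 8.32 TPM in *Yy1* KD libraries, which left 9.07% of the control mean. All 8 morula markers chosen for the check (*Pou5f1*, *Nanog*, *Cdx2*, *Tfap2c*, *Krt8*, *Krt18*, *Cdh1* and *Dppa3*) were expressed, with a summed level of 6214 to 6740 TPM in control KD against 6228 to 6682 TPM in *Yy1* KD libraries, and 1 of them, *Tfap2c*, was called lower (log2 fold change -0.54, limma adjusted p = 0.017). *Dppa3* made up most of this sum, and *Cdh1* stood at 57.4% (limma adjusted p = 0.125) and *Krt8* at 72.6% (limma adjusted p = 0.231) of their control means. The part of such marker differences in the results below was not tested. The 6 cumulus cell markers summed to 8.77 to 10.6 TPM and 8.08 to 9.31 TPM, nearly all of it *Amhr2*, with *Has2*, *Ptx3* and *Tnfaip6* at 0 in every library. The 4 sperm markers summed to 0.216 to 0.542 TPM in control KD against 0 to 2.26 TPM in *Yy1* KD libraries.

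In control KD morulae, transcripts of the 65 members together made up 6176 ± 105 TPM (SD, n = 3). Complex V supplied 2840 ± 73.8 TPM of this, complex IV 1779 ± 14.6, complex III 1363 ± 43.5, complex II 147.7 ± 3.40 and cytochrome c 46.0 ± 4.07. Succinate dehydrogenase was thus represented by far less RNA than the other complexes, and its best expressed gene, *Sdha*, the flavoprotein that oxidizes succinate, had 56.8, 54.0 and 59.5 TPM. The most abundant member of all was *Atp5mpl*, a small proteolipid of the ATP synthase, with 529.1, 498.5 and 512.4 TPM. The medians of subunit genes stood above those of assembly factor genes. They were 95.9 against 15.0 TPM among the tested genes of complex IV and 31.9 against 2.64 TPM among those of complex II. Exon lengths of the tested members ran from 231 to 7195 nt, and 23 of the tested members shared exonic bases with another annotated gene, where pairs were divided without regard to strand.

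**Figure D1:**
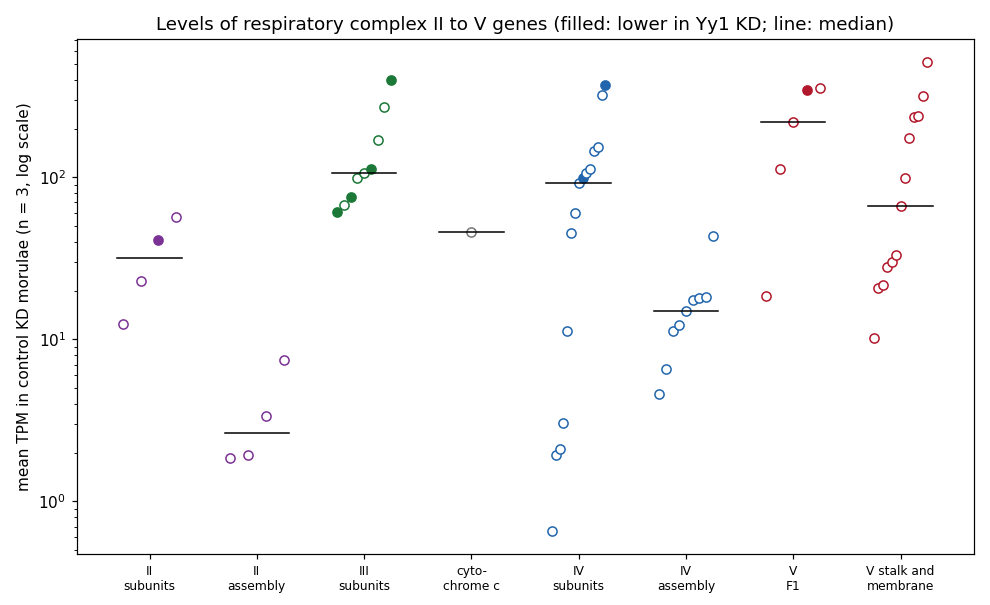
Mean TPM of each member in control KD morulae (n = 3, log axis) by complex and role, with filled circles for members called lower in *Yy1* KD and black lines for medians. Members at 0, processed pseudogenes and *Cox7a2l* are left out. The medians of the assembly factors of complexes II and IV, 2.64 and 15.0 TPM, sit below those of the subunits of the same complex. Some subunits of complex IV, such as *Cox4i2* at 1.95 TPM, lie below all assembly factors of that complex.

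Genes that reached 1 TPM in 3 or more libraries entered a limma test on log2(TPM + 1), and a gene was called at a Benjamini-Hochberg adjusted p under 0.05 over all 17353 genes tested. Of the 65 members, 61 were tested, and *Cox6a2*, *Cox8b*, *Cox8c* and *Cox20b* were too low. In *Yy1* KD morulae 8 members were called lower (13.1% of those tested), against 4.20% of all genes, and 0 were called higher, against 1.92% of all genes. The 8 calls fell to between 1 and 3 when any single library was left out and to 1 with no filter on low values, with *Atp5a1* called each time. Of the 61 tested members, 19 had an unadjusted p under 0.05 in the same test, all of them lower, against 23.8% of all genes in either direction and 9.35% in the higher direction. The 3 *Yy1* KD values lay below all 3 control values for 20 members (32.8%, against 17.2% of all genes) and above them for 3 members (4.92%, against 12.9% of all genes). The median log2 fold change was -0.13 over the tested members and -0.02 over all genes tested. The summed level of all members was 5482 ± 222 TPM in *Yy1* KD morulae, 88.8% of the control. The 8 called members fell from 1506 ± 23.4 to 975 ± 11.3 TPM in sum, while the other members summed to 4670 ± 86.4 and 4506 ± 212 TPM. The 8 were picked for being lower in these same values, which favours such a split, so it does not locate the decrease.

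**Figure D2:**
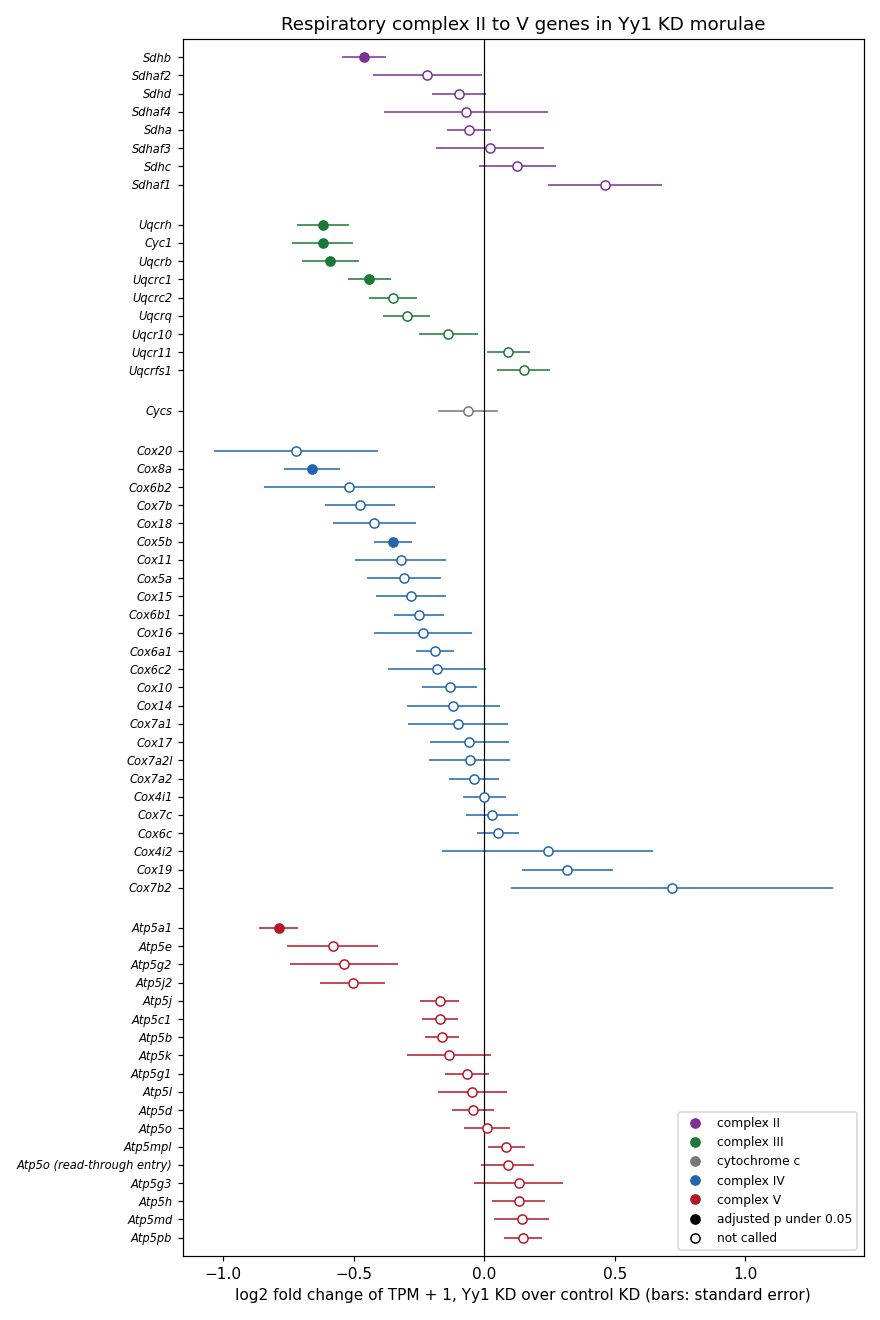
Log2 fold change of TPM + 1 in *Yy1* KD over control KD morulae for the 61 tested members, by complex, with limma standard errors as bars and filled circles for members with an adjusted p under 0.05. All 8 filled circles lie left of 0, 4 of them in complex III.

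Among the 8 *Sdh* genes of complex II, 1 subunit gene was called lower (12.5%, against 4.20% of all genes), and 5 log2 fold changes were below 0. In each direction 1 of the 8 had no overlap between groups (12.5%), against 17.2% of all genes lower and 12.9% higher. *Sdhb* (ENSMUSG00000009863.14, chr4:140961203-140979193, plus strand, GRCm38), the iron-sulfur subunit that carries electrons from the flavoprotein toward ubiquinone, had 41.2, 43.3 and 38.3 TPM in control KD against 29.8, 28.9 and 29.7 TPM in *Yy1* KD libraries. The groups did not overlap, and the *Yy1* KD libraries were closely spaced. The log2 fold change was -0.46 (SE 0.085, limma adjusted p = 0.032). Leaving out any 1 of the 6 libraries ended the call, with adjusted p between 0.077 and 0.106, while the log2 fold change stayed between -0.51 and -0.42.

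*Sdha*, the partner that holds the flavin, had 54.6, 50.8 and 58.0 TPM in *Yy1* KD libraries, which overlapped its control values (log2 fold change -0.06, SE 0.085). The membrane anchors *Sdhc* (0.13) and *Sdhd* (-0.10) were not called either. The ratio of *Sdhb* to *Sdha* within a library was 0.724 ± 0.0786 in control KD and 0.542 ± 0.0288 in *Yy1* KD morulae. Pairs of subunits for such ratios were chosen after their values had been seen, so the ratios are given with no test. The log2 fold change of complex II with the largest size was that of *Sdhaf1*, an assembly factor that helps to mature the iron-sulfur subunit, with 1.75, 2.41 and 1.43 TPM in control KD against 2.93, 2.63 and 3.16 TPM in *Yy1* KD libraries. Its *Yy1* KD values all lay above the control values, but the log2 fold change of 0.46 (SE 0.22) was not called (limma adjusted p = 0.258), and 1733 nt of its exons overlap *E130208F15Rik*. The summed level of complex II was 133.2 ± 7.52 TPM in *Yy1* KD morulae.

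Complex III, which oxidizes ubiquinol and reduces cytochrome c, held 4 of the 8 called members. These 4 were 44.4% of its 9 genes, against 4.20% of all genes, and 6 of the 9 (66.7%) had no overlap between groups in the lower direction, against 17.2% of all genes. In the higher direction 0 had none, against 12.9% of all genes. The median log2 fold change was -0.35, and the summed level was 1111 ± 80.4 TPM in *Yy1* KD morulae, 81.5% of the control and the lowest such percentage among the complexes.

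*Uqcrh* (ENSMUSG00000063882.12, chr4:116066965-116075071, minus strand), the acidic hinge protein at the docking face of cytochrome c, had 117.8, 122.3 and 98.8 TPM in control KD against 75.9, 73.6 and 69.2 TPM in *Yy1* KD libraries. This gave a log2 fold change of -0.62 (SE 0.0999, limma adjusted p = 0.023). Its neighbour in the complex, *Cyc1* (ENSMUSG00000022551.8, chr15:76343523-76346260, plus strand), encodes the heme protein cytochrome c1, which hands electrons to cytochrome c. It had 56.2, 66.2 and 62.2 TPM in control KD against 42.4, 34.2 and 42.8 TPM in *Yy1* KD libraries. The log2 fold change was likewise -0.62, with an SE of 0.118 and a limma adjusted p of 0.034. For both genes every *Yy1* KD library was below every control library.

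*Uqcrb* (ENSMUSG00000021520.4, chr13:66900617-66905378, minus strand), a small subunit at the ubiquinone-binding side and the most abundant transcript of complex III, had 438.2, 359.7 and 396.9 TPM in control KD against 296.5, 241.9 and 254.6 TPM in *Yy1* KD libraries. The log2 fold change of *Uqcrb* was -0.59 (SE 0.108, limma adjusted p = 0.032). Of the 50-base words of its longest protein-coding transcript, 43.2% also occur in transcripts of other annotated genes. This was the largest share among the called members, and it makes the level of *Uqcrb* less certain. *Uqcrc1* (ENSMUSG00000025651.14, chr9:108936633-108949623, plus strand), a core protein on the matrix side, had 74.1, 74.8 and 76.8 TPM in control KD against 58.4, 56.6 and 50.8 TPM in *Yy1* KD libraries. For *Uqcrc1* the log2 fold change was -0.44 (SE 0.082, limma adjusted p = 0.032). The calls of *Cyc1* and *Uqcrc1* were lost whichever of the 6 libraries was left out (adjusted p 0.067 to 0.111 and 0.056 to 0.111). That of *Uqcrh* was kept only without control KD replicate 3 (adjusted p 0.048, otherwise up to 0.081) and that of *Uqcrb* only without *Yy1* KD replicate 1 (adjusted p 0.041, otherwise up to 0.104).

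The remaining 5 genes of complex III were not called. The other core protein gene, *Uqcrc2* (log2 fold change -0.35, limma adjusted p = 0.075), and the small subunit gene *Uqcrq* (-0.30, limma adjusted p = 0.104) had *Yy1* KD values all below the control values. *Uqcrfs1*, which encodes the Rieske iron-sulfur protein that passes electrons to cytochrome c1, had 157.6, 191.3 and 159.6 TPM in control KD against 203.7, 178.1 and 181.9 TPM in *Yy1* KD libraries, with a log2 fold change of 0.15 (SE 0.101). The ratio of *Cyc1* to *Uqcrfs1* was 0.364 ± 0.0226 in control KD and 0.212 ± 0.0220 in *Yy1* KD morulae, while the ratio of the core proteins *Uqcrc1* to *Uqcrc2* was 1.13 ± 0.10 and 1.06 ± 0.0454. Cytochrome c, the soluble carrier that links complexes III and IV, is encoded by *Cycs*. It had 43.1, 50.7 and 44.3 TPM in control KD against 50.2, 41.1 and 41.2 TPM in *Yy1* KD libraries, so that the groups overlapped (log2 fold change -0.06, SE 0.115).

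**Figure D3:**
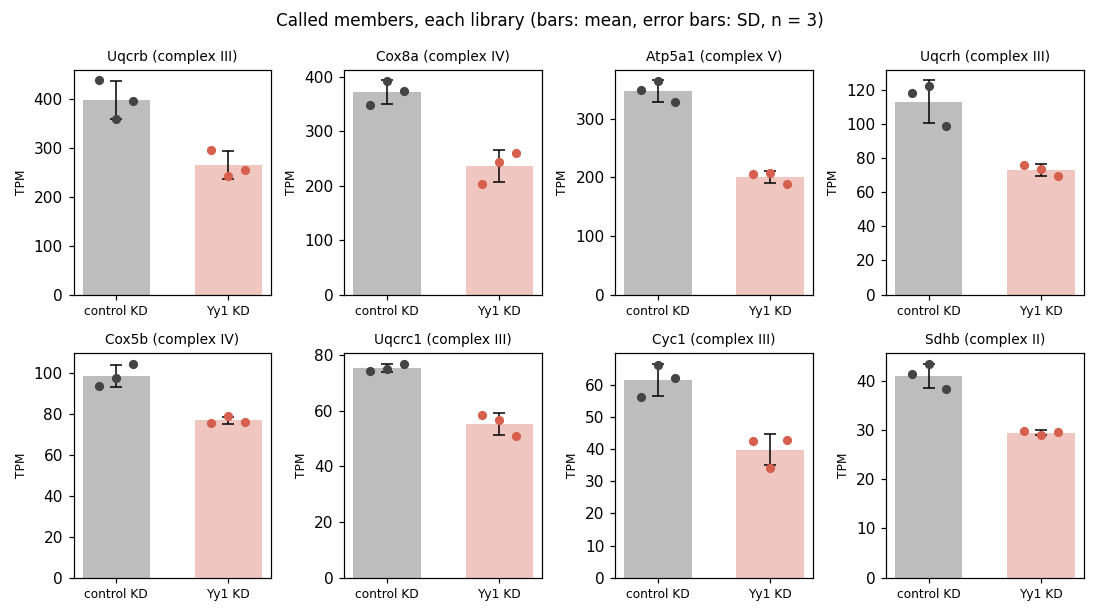
TPM of the 8 called members in each library (points), with the group mean as a bar and the SD as an error bar (n = 3 per group). In every panel the 3 *Yy1* KD points lie below the 3 control points, and the *Yy1* KD means are 57.8% to 78.1% of the control means.

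Complex IV, cytochrome c oxidase, reduces oxygen with a catalytic core encoded in mitochondrial DNA and a shell of nuclear-encoded subunits. Of its 25 tested members 2 (8.0%) were called lower, both of them subunits of this shell, against 4.20% of all genes. The 6 members without overlap in the lower direction (24.0%) were a share near the 17.2% of all genes, and 1 (4.0%) had no overlap in the higher direction, against 12.9%. The summed level was 1535 ± 61.7 TPM in *Yy1* KD morulae, 86.3% of the control. *Cox8a* (ENSMUSG00000035885.5, chr19:7215153-7217616, minus strand), a small shell subunit and the most abundant transcript of complex IV in control KD but not in *Yy1* KD morulae, had 348.2, 392.3 and 373.4 TPM in control KD against 202.9, 244.1 and 259.9 TPM in *Yy1* KD libraries. Its log2 fold change was -0.66 (SE 0.107, limma adjusted p = 0.024). *Cox5b* (ENSMUSG00000061518.11, chr1:36691449-36693681, plus strand), a zinc-binding subunit on the matrix side, had 94.0, 97.6 and 104.8 TPM in control KD against 76.0, 79.1 and 76.4 TPM in *Yy1* KD libraries. Its log2 fold change was -0.35 (SE 0.073, limma adjusted p = 0.043), and 25.9% of its 50-base words are shared with the predicted gene *Gm11273*. The call of *Cox8a* was kept only without *Yy1* KD replicate 1 or 3 (adjusted p from 0.040, otherwise up to 0.086), and that of *Cox5b* was lost whichever library was left out (adjusted p 0.090 to 0.135).

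*Cox4i1*, which encodes the large regulatory subunit 4, had 152.6, 136.1 and 145.6 TPM in control KD against 150.5, 133.7 and 150.1 TPM in *Yy1* KD libraries, and its groups overlapped. The ratio of *Cox8a* to *Cox4i1* was 2.58 ± 0.30 in control KD and 1.64 ± 0.253 in *Yy1* KD morulae. The ratio of *Cox5b* to *Cox5a*, another matrix-side subunit, overlapped between groups, with 2.26 ± 0.578 and 2.16 ± 0.160. *Cox6c*, which encodes a shell subunit with 342.6, 320.4 and 302.6 TPM in control KD against 358.1, 322.3 and 320.3 TPM in *Yy1* KD libraries (log2 fold change 0.05), and *Cox7c* (0.03) were near 0, whereas *Cox7b* (-0.48, limma adjusted p = 0.090), *Cox6b1* (-0.25, limma adjusted p = 0.170) and *Cox6a1* (-0.19, limma adjusted p = 0.179) had non-overlapping lower values without being called.

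Of the 9 assembly factors of complex IV, 0 were called, against 4.20% of all genes lower and 1.92% higher. Of their 9 log2 fold changes 8 were below 0, with a median of -0.24 (smallest adjusted p in the limma fit 0.168). The gene of this complex with the largest log2 fold change of TPM + 1 in size was *Cox20*, a chaperone for a mitochondrially encoded subunit, with 10.7, 8.48 and 14.7 TPM in control KD against 8.78, 3.77 and 7.35 TPM in *Yy1* KD libraries. These values overlap, the log2 fold change of -0.72 had an SE of 0.31 (limma adjusted p = 0.223), and it was -0.41 without *Yy1* KD replicate 2. It also shares 804 nt of exon with *Hnrnpu*. With a pseudocount of 0.1 or with limma-voom the scarce *Cox7b2* (0.72 in the test used here) stood further from 0, at 1.05 and 1.14, and was not called. In each direction 1 of the 9 assembly factors had no overlap between groups (11.1%), against 17.2% of all genes lower and 12.9% higher. The lower one was *Cox18* (-0.42, limma adjusted p = 0.168), which inserts a core subunit into the membrane. The higher one was *Cox19* (0.32, limma adjusted p = 0.324), a copper-related factor.

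Several subunits of complexes IV and V are encoded by more than 1 gene, and in complex IV the widely expressed isoform predominated in these morulae. *Cox4i1* supplied 98.6% ± 1.14 of *Cox4* RNA, *Cox6b1* 98.1% ± 0.768 of *Cox6b* RNA and *Cox8a* 99.8% ± 0.242 of *Cox8* RNA in control KD. The minor isoform *Cox4i2* had 1.47, 3.69 and 0.680 TPM in control KD against 1.64, 3.0 and 2.05 TPM in *Yy1* KD libraries. *Cox6b1* had 165.1, 155.1 and 142.0 TPM in control KD against 132.6, 116.6 and 138.8 TPM in *Yy1* KD libraries, and its testis isoform *Cox6b2* had 4.01, 3.67 and 1.45 against 2.21, 1.48 and 1.46 TPM. *Cox6a1* had 107.9, 111.8 and 118.2 TPM in control KD against 99.4, 93.8 and 102.6 TPM in *Yy1* KD libraries. The muscle isoform *Cox6a2* and the testis isoform *Cox8c* were at 0 in every library, and the muscle isoform *Cox8b* was at 0 in 3 libraries and reached 2.87 TPM. *Cox7a* was mixed, with 84.2% ± 2.15 from *Cox7a2* and 15.8% ± 2.15 from the muscle isoform *Cox7a1*. *Cox7a2* had 65.1, 55.5 and 59.9 TPM in control KD against 61.4, 53.4 and 60.7 TPM in *Yy1* KD libraries, and *Cox7a1* had 11.6, 12.3 and 9.77 against 12.1, 7.82 and 11.7 TPM. Both overlapped between groups, unlike *Cox7b*, which had 100.6, 79.8 and 98.5 TPM in control KD against 72.6, 56.6 and 70.7 TPM in *Yy1* KD libraries. The testis isoform *Cox7b2* had 0.713, 0.893 and 4.70 TPM in control KD against 4.53, 6.04 and 1.12 TPM in *Yy1* KD libraries, a wide and overlapping spread.

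The related factor *Cox7a2l*, which joins complexes III and IV into supercomplexes, had 58.5, 76.8 and 76.2 TPM in control KD against 80.6, 58.6 and 64.3 TPM in *Yy1* KD libraries. The 3 genes of the ATP synthase c ring, *Atp5g1*, *Atp5g2* and *Atp5g3*, summed to 71.2 ± 3.66 TPM in control KD against 69.2 ± 6.78 TPM in *Yy1* KD. *Atp5g1* supplied 46.6% ± 4.31 and 45.8% ± 3.34 of this sum, *Atp5g3* 39.1% ± 1.66 and 44.5% ± 5.71, and *Atp5g2* 14.2% ± 2.66 and 9.73% ± 2.38. *Atp5g2* had 10.03, 12.7 and 7.84 TPM in control KD against 5.47, 6.95 and 7.47 TPM in *Yy1* KD libraries, with no overlap but no call, while *Atp5g1* had 33.5, 31.5 and 34.2 against 32.2, 31.8 and 30.7 TPM and *Atp5g3* 27.7, 30.6 and 25.4 against 38.8, 29.3 and 25.0 TPM. For *Atp5g2* the fold change missed the threshold (log2 fold change -0.54, SE 0.21, limma adjusted p = 0.172).

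In complex V 1 of the 18 tested members was called lower (5.56%), a share near the 4.20% of all genes. The called member had the lowest log2 fold change of TPM + 1 among all tested members. With a pseudocount of 0.1, however, *Cox20* was lower (-0.81 against -0.79). *Atp5a1* (ENSMUSG00000025428.15, chr18:77773729-77782869, plus strand) encodes the alpha subunit, which forms the catalytic F1 head together with beta. It had 348.3, 364.8 and 327.8 TPM in control KD against 205.8, 207.4 and 188.3 TPM in *Yy1* KD libraries, so that 57.8% of the control mean was left. The log2 fold change was -0.79 (SE 0.075, limma adjusted p = 0.0069). *Atp5a1* was the only member called under each leave-one-out fit (adjusted p 0.026 to 0.046) and under each of the 7 other alternatives. Its exons overlap *Haus1* on the opposite strand over 129 nt.

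*Atp5b*, the catalytic beta subunit with which alpha alternates in the head, had 365.3, 357.1 and 339.1 TPM in control KD against 320.1, 321.2 and 306.2 TPM in *Yy1* KD libraries. Its values did not overlap, but the log2 fold change was only -0.16 (SE 0.064, limma adjusted p = 0.184). The ratio of *Atp5a1* to *Atp5b* was therefore 0.981 ± 0.0362 in control KD and 0.635 ± 0.0172 in *Yy1* KD morulae. The rest of the F1 part had log2 fold changes below 0 without being called, with *Atp5c1*, the gamma rotor shaft, at -0.17 (limma adjusted p = 0.199), *Atp5e*, epsilon, at -0.58 (limma adjusted p = 0.103) and *Atp5d*, delta, at -0.04 (limma adjusted p = 0.797). In all, 4 of the 5 F1 genes (80.0%) had no overlap in the lower direction, against 17.2% of all genes. Over complex V the share was 7 of 18 (38.9%), and in its stalk and membrane part 3 of 13 (23.1%). In the higher direction 1 of the 18 (5.56%) had no overlap, against 12.9% of all genes.

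**Figure D4:**
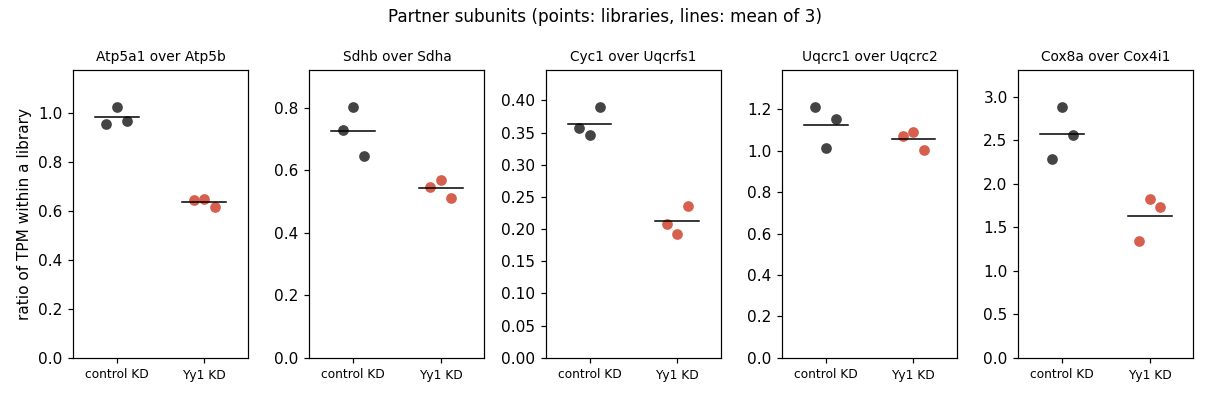
Ratio of TPM between partner subunits of the same complex within each library (points), with the mean of 3 libraries as a line and axes starting at 0. The ratios of *Atp5a1* to *Atp5b*, *Sdhb* to *Sdha*, *Cyc1* to *Uqcrfs1* and *Cox8a* to *Cox4i1* do not overlap between groups, and that of *Uqcrc1* to *Uqcrc2* does.

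In the stalk and membrane part of complex V 0 of 13 genes were called, against 4.20% of all genes lower and 1.92% higher. Of their log2 fold changes 6 were below and 7 above 0, with a median of 0.01. *Atp5mpl* had 533.5, 579.6 and 521.3 TPM in *Yy1* KD libraries (log2 fold change 0.09, SE 0.070). The peripheral stalk genes *Atp5pb* (subunit b, 0.15) and *Atp5h* (subunit d, 0.13) lay slightly above 0, and *Atp5pb* was the gene of complex V whose *Yy1* KD values all exceeded the controls (limma adjusted p = 0.271). *Atp5j*, coupling factor 6 of the same stalk, was at -0.17 (limma adjusted p = 0.226). *Atp5j2*, membrane subunit f, had 22.6, 22.3 and 20.1 TPM in control KD against 16.4, 13.0 and 15.5 TPM in *Yy1* KD libraries, with a log2 fold change of -0.51 (SE 0.12) that missed the threshold (limma adjusted p = 0.063). It was called at a mean TPM of at least 5 and with limma-voom. The entries of *Atp5o*, the subunit that ties the stalk to the head, had log2 fold changes of 0.01 and 0.09 and share 243 nt with each other. The summed level of complex V was 2658 ± 163 TPM in *Yy1* KD morulae, 93.6% of the control.

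Genes of the same pathway outside the rule on symbols were read from a list of 39, of which 36 could be tested. Of these 4 were called lower and 2 higher, where 4.20% and 1.92% of all genes were called, and the median log2 fold change was -0.10, against -0.02 over all genes. Of these 6 called genes, 3 were among the 6 tested genes that act in the assembly of complex III. *Uqcc2*, an assembly factor that acts on newly made cytochrome b, had 51.9, 64.8 and 58.3 TPM in control KD against 25.6, 23.5 and 29.5 TPM in *Yy1* KD libraries, a log2 fold change of -1.13 (SE 0.12, limma adjusted p = 0.011). *Uqcc1*, its partner, had 47.3, 44.8 and 49.0 TPM in control KD against 35.4, 32.6 and 34.3 TPM in *Yy1* KD libraries, a smaller decrease (log2 fold change -0.45, SE 0.082, limma adjusted p = 0.031). *Bcs1l*, the AAA protein that inserts the Rieske protein, was higher, with 8.15, 6.54 and 6.36 TPM in control KD against 19.4, 12.7 and 14.4 TPM in *Yy1* KD libraries (log2 fold change 1.03, SE 0.19, limma adjusted p = 0.031).

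Of the 17 tested genes listed for the assembly and expression of complex IV, 1 was called lower, where 4.20% of all genes were. This was the assembly factor gene *Coa3*, with 32.1, 33.9 and 38.3 TPM in control KD against 17.3, 9.85 and 18.7 TPM in *Yy1* KD libraries (log2 fold change -1.18, SE 0.23, limma adjusted p = 0.037). Its exons overlap *Cntd1* over 82 nt. In complex V *Atpif1*, the inhibitor that binds F1, was the 1 gene called lower of 5 tested, with 147.1, 127.3 and 145.8 TPM in control KD against 108.1, 106.2 and 92.1 TPM in *Yy1* KD libraries (-0.45, SE 0.097, limma adjusted p = 0.046), and 485 nt of its exons overlap *Gm12999*. Among the 7 tested regulators of respiratory genes, 1 was called. *Gabpa*, the DNA-binding subunit of GABP, had 139.0, 149.0 and 144.0 TPM in control KD against 184.8, 191.2 and 186.5 TPM in *Yy1* KD libraries (log2 fold change 0.38, SE 0.064, limma adjusted p = 0.026), and 397 nt of its exons overlap *Atp5j*. *Nrf1* (-0.04) and *Tfam*, the mitochondrial DNA packaging factor (0.20), were not called, and *Ppargc1a* was at or near 0. *Ppargc1b*, a coactivator, was at -0.75 (SE 0.18) and missed the threshold (limma adjusted p = 0.057). Among 47 tested *Nduf* genes of complex I, 12 were called lower and 1 higher (25.5% lower, median log2 fold change -0.06), and the difference from complexes II to V was not tested.

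The promoters of the called members were read to see which motifs stand near their starts, since YY1 binds DNA. RefSeq promoter windows (GRCm38.p6, 250 bases before to 50 after the start) matched 48 of the 64 symbols, and 5 of the 8 called members were among them. Both strands were searched for the YY1 motif GCCATNTT and its core GCCAT, which lies within the longer motif, for the NRF1 motif GCGCANGC and for the ETS motif CCGGAAGT, which GABP binds. The windows from 70 bases before to 30 after the start are shown for these 5 members, with NRF1 or ETS matches in capitals.
*Sdhb* (chr4:140961201-140961300, plus strand, NRF1): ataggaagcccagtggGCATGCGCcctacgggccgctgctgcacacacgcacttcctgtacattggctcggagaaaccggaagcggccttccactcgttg
*Uqcrh* (chr4:116075041-116075140, minus strand, ETS): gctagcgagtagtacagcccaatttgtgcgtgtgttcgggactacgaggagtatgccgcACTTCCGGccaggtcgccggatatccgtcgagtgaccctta
*Uqcrc1* (chr9:108936578-108936677, plus strand, NRF1): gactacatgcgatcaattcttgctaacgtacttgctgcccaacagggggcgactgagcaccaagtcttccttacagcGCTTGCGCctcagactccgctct
*Cox8a* (chr19:7217587-7217686, minus strand, ETS): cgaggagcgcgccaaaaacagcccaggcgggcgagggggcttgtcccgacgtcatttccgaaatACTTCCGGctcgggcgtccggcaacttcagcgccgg
*Cox5b* (chr1:36691417-36691516, plus strand, no match): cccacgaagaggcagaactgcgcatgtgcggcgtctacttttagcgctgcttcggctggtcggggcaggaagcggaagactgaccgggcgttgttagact

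In these windows the NRF1 motif was found in 18 of the 48 member symbols (37.5%), against 11.2% of all 27025 genes. The ETS motif was found in 8 (16.7%), against 4.31%. These 27025 genes include genes that were not tested here, unlike the 11440 genes used further on. The YY1 motif was found in 8 members (16.7%), against 6.96% of all genes, and in 0 of the 5 called members, so that all 8 were tested members that were not called. The shorter core was found in 19 members (39.6%), against 44.2% of all genes, and also in 0 of the 5. The YY1 matches of these 8 members are printed with 30 bases each, so that they can be compared with those of the called members further on.
*Atp5b* (chr10:128083313-128083342, plus strand): acccggattccGCCATGTTgagtcttgtgg
*Atp5pb* (chr3:105959248-105959277, minus strand): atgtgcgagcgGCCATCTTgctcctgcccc
*Atp5j* (chr16:84835046-84835075, minus strand): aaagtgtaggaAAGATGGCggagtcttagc
*Atp5j2* (chr5:145191500-145191529, minus strand): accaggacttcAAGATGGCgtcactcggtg
*Cox20* (chr1:178319067-178319096, plus strand): gaacgctccctAAGATGGCcgccgccgcgc
*Cox10* (chr11:64079433-64079462, minus strand): ggcgggctagcAAGATGGCggcgcccagga
*Cox7b* (chrX:106015720-106015749, plus strand): ggctccctgctgaaaGCCATTTTgtttttc
*Sdhaf2* (chr19:10525305-10525334, minus strand): ccgttaccgggAATATGGCggcggccgcgg

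Since 16 symbols had no promoter window, the first 100 nt of every annotated protein-coding transcript (GENCODE vM21, GRCm38) were searched as well, a choice made after the data had been seen. There the YY1 motif was found in 10 of 60 tested members (16.7%), against 9.90% of 11440 tested genes, and in 4 of the 8 called members, *Atp5a1*, *Uqcrb*, *Uqcrc1* and *Cox8a*. In *Uqcrb* and *Uqcrc1* the motif spans the start codon. The 30 bases around the match are shown for 3 of these 4, and the sequence of *Atp5a1* is not reported here.
*Uqcrb* (chr13:66905296-66905325, minus strand): actctcaggtcAAAATGGCgggccgatctg
*Uqcrc1* (chr9:108936714-108936743, plus strand): agAAGATGGCggcgtccgcagtctgccgag
*Cox8a* (chr19:7217551-7217580, minus strand): cggctggttcgGCCATCTTgactccctgac

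The match of *Uqcrc1* lies downstream of the promoter window searched above and that of *Cox8a* runs across its downstream end, so that the presence of the motif in a called member depended on the window. The core GCCAT, in 0 of the 5 called members with a promoter window, was found in 6 of the 8 within the first 100 nt. Its share there was 43.3% of the members, against 42.6% of the 11440 genes. The NRF1 motif was found there in 3 of the 8 and the ETS motif in 2, *Cox5b* among both. Over the members these 2 shares were 26.7% and 11.7%, against 9.51% and 3.94% of the 11440 genes. The longer YY1 motif was equally found in *Atp5b*, which was not called, and a match in these letters does not show that YY1 binds there.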

How the data were processed

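Total RNA of morulae was sequenced from 3 control KD and 3 *Yy1* KD libraries (SMART-Seq Stranded kit). The authors trimmed reads (Trim Galore 0.6.7), aligned them to mm10 (HISAT2 2.2.1), removed ribosomal RNA reads (bedtools) and assigned pairs to GENCODE vM25 genes (featureCounts 2.0.1), dividing pairs on several genes and ignoring strand. The authors deposited TPM per gene and library; the edgeR test on counts was replaced by limma because TPM are not counts.

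Values on the log2(TPM + 1) scale were tested with limma 3.58.1 (R 4.3.3, variance trend), on genes that reached 1 TPM in 3 or more libraries, so a fold change understates that of low genes. P-values are two-sided, ± is the SD of 3 libraries, and an exact permutation test of 3 against 3 libraries cannot go below p = 0.1. The test was checked on simulated data with fold changes larger than those of the called members. That check does not cover changes of their size. Exon lengths, overlaps and coordinates came from GENCODE vM21, in which 98.1% of the gene versions matched, and read pairs were recovered as TPM times exon length. Every member could be named, and values per library are given for called members, the most abundant and the most changed member of each complex, isoform families and called genes of the pathway list. Other members so given were chosen after their values were seen. Members and lists were chosen with earlier results of these data known. Alternatives were another pseudocount, 2 other filters, 2 scalings, a replicate block, limma-voom on recovered pairs and leaving out each library. Same-numbered libraries deviated together only weakly (correlations -0.0039, 0.032 and 0.075), so the numbers were not taken as pairs. Promoters came from RefSeq (GRCm38.p6). Python 3.11.15 with pandas 2.3.3, numpy 2.4.6 and matplotlib 3.10.9 was used for tables and plots.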

Additional observations from a re-analysis of the deposited data

How the results depend on the processing

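The number of members called lower, 8 in the fit described above, was 8 with a pseudocount of 0.1, 9 at a mean TPM of at least 5, 8 with limma-voom on recovered read pairs and 6 with median-ratio scaling, but 5 with quantile normalization, 3 with the replicate block and 1 with no filter on low values, and it ranged from 1 to 3 when a single library was left out. *Atp5a1* was called in each of these fits, and 0 members were called higher in any of them. All genes called lower numbered 270 with no filter, 218 with the replicate block, 1287 with limma-voom and 53 to 326 without a single library, against 728, and those called higher 77, 69, 808 and 22 to 92, against 333. The replicate block kept *Atp5a1*, *Cox8a* and *Uqcrb* and lost the other 5 calls. With limma-voom the members called were not the same 8, since *Cox5b* lost its call (limma-voom adjusted p = 0.054) and *Atp5j2* gained one. *Atp5j2* was also called at a mean TPM of at least 5. The call of *Cox5b* was further lost with no filter, median-ratio scaling, quantile normalization and the replicate block. Of the 6 libraries, 3 correlated best with the library of their own number, so the numbers were not read as pairs. The median log2 fold change of the members was -0.069 with quantile normalization and between -0.18 and -0.11 without a single library, and no member that was called changed direction under any alternative. The cause of these differences was not tested. Called members had at least 329 recovered read pairs in every library, while the isoform gene *Cox7b2* had as few as 2, which limits what could be seen of it.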

Other observations

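Processed pseudogenes of the members, which the rule on symbols left out, were read separately (12 genes with symbols ending in a pseudogene mark). *Atp5pb-ps* (15.6 ± 1.24 and 17.6 ± 2.12 TPM in control KD and *Yy1* KD), *Cox7c-ps1* (11.01 ± 2.62 and 10.5 ± 5.76) and *Atp5k-ps2* (10.7 ± 7.09 and 8.64 ± 4.42) were expressed at a low level, the others except *Cox5b-ps* had means under 3 TPM, and 0 of those tested with limma were called, with the smallest adjusted p at 0.144 (*Atp5l-ps1*). The highest level was that of *Cox5b-ps*, annotated as protein coding, with 87.3 ± 17.0 TPM in control KD against 72.0 ± 6.72 TPM in *Yy1* KD (SD, n = 3), near the level of *Cox5b* itself (98.8 ± 5.51 and 77.2 ± 1.70 TPM). Its log2 fold change was -0.26 (SE 0.15, limma adjusted p = 0.356). The processed pseudogene *Cox6c2* had 35.1, 35.4 and 33.7 TPM in control KD against 22.9, 39.8 and 31.0 TPM in *Yy1* KD libraries, so that its groups overlapped. The part that shared sequence plays in these levels was not tested.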
